A study of Mus musculus with 24 samples.

Results

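Lungs of Rag-1 null mice taken 10 days after lipopolysaccharide (LPS) were compared with lungs of untreated Rag-1 null controls, and all probes of the array were examined. The comparison holds 6 of the 24 arrays of the series, 3 per group, chosen by the sample titles. All animals were male C57BL/6 mice 6 to 8 weeks old, and the tissue was whole lung. The control and the LPS group carried the same Rag-1 null genotype and differed by LPS and the 10 days after it. The other 18 arrays were Rag-1 null lung at day 1 and day 4, and wild type lung as control and at days 1, 4 and 10. The sources used here do not say how LPS was given, at what dose, or whether an array holds RNA of 1 animal. The p-values therefore reflect how much these arrays vary, and that variation may be technical.

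LPS, the endotoxin of Gram-negative bacteria, is sensed through Toll-like receptor 4 with Cd14 and starts an acute inflammation of the lung, with neutrophils first and monocyte-derived macrophages later. Rag-1 cuts DNA to assemble antigen receptor genes, and mice without it have no mature T or B cells but keep macrophages, neutrophils, natural killer cells and innate lymphoid cells. The series' title concerns how regulatory T cells resolve lung injury. Rag-1 null lung lacks them along with all other mature T and B cells, and whether injury resolved there was not tested.

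The genotype was read from lymphocyte markers. Cd3e, Cd3g, Cd79a and Fcmr, parts of the T and B cell receptors and a receptor for IgM, were above background on 0 of 3 Rag-1 null control arrays. At day 10 they were above background on 1 of 3 arrays for Cd3e and on 0 of 3 for the other genes. Cd3d, another T cell receptor chain, was above background on 1 of 3 Rag-1 null control arrays and on 0 of 3 at day 10. Cd79b, the partner of Cd79a, was above background on all 6 arrays, at 4.99, 5.0 and 4.97 in Rag-1 null controls and at 5.53, 5.38 and 5.34 at day 10, against 8.03, 7.22 and 6.67 in wild type controls. Its day 10 arrays thus lay above the controls, a difference that did not pass (adjusted p = 0.319). In wild type controls Cd3e lay at 5.97, 6.74 and 6.02 on the log2 scale of normalised intensity, against 4.38, 4.36 and 4.44 in Rag-1 null controls. The probe for Rag1 itself was above background on at most 2 of 3 arrays in any group, so it checks nothing. The tissue was checked against lung markers. Sftpc, the surfactant protein C gene of alveolar type 2 cells, and Scgb1a1, the secretory protein gene of club cells, stood at 13.93 and 13.63 on all 6 arrays, at or near the top of the normalised range. Between 10890 and 11463 probes per array were above background in both groups, and replicate arrays correlated across probes at 0.987 to 0.991 in controls and at 0.975 to 0.990 at day 10. Atrial and fat genes differed between single arrays. The atrial myosin light chain gene Myl7 stood at 8.79, 7.07 and 8.73 in control replicates 1, 2 and 3, and at 6.92, 7.92 and 6.22 at day 10. The number of arrays limits the precision.

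At day 10, 1202 of the 13544 probes tested differed from control at a Benjamini-Hochberg adjusted p under 0.05 in limma, which is 8.87% of the probes. Of these, 628 were higher and 574 lower, 4.64% and 4.24% of the probes, and 2617 probes had an unadjusted p under 0.05. Taken as genes, each by its brightest probe, 523 rose and 470 fell of 9605, or 5.45% and 4.89%. Of the 9605 genes, 2104 had an unadjusted p under 0.05. The difference had 1 sign on all 3 slides for 1195 of the 1202 probes. The arrays of both groups did not overlap for 505 of the 523 risen genes and 466 of the 470 fallen genes, while over all genes tested the day 10 arrays lay wholly above the controls for 16.7% and wholly below for 17.2%. The median difference over all probes was -0.01. Without day 10 replicate 2 the count was 783, of which 351 were lower. Without control replicate 2 the number of lower probes was 370. Values after gene names below are log2 differences, LPS day 10 minus control, ± the standard error from limma over 3 arrays per group.

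The 20 largest rises were those of Saa3, Gpnmb, Cxcl9, Slc26a4, Clec4d, Trem2, Ctsk, Cfb, Lcn2, Mmp12, Clec4n, C1qb, Lilrb4a, Clec4e, Ms4a6d, C1qc, Fcgr2b, Arg1, Retnla and Tlr2, from 4.60-fold to 40.2-fold. Lilrb4a has a near-identical neighbour, so its probe may read both. The 20 largest falls, from 3.10-fold to 6.26-fold, were those of Dbp, Ednrb, Bex2, Tmem100, Cyp4b1, Smad6, Plvap, Pon1, Hpgd, Igfbp6, Nr1d1, Esm1, Slc7a10, Slc6a2, Acaa1b, Igfbp3, Synm, Bmp6, Hey1 and Hilpda. In all 40 genes no day 10 array overlapped the controls. Among the falls, 3 lost the call when single arrays were left out. Igfbp3, an insulin-like growth factor binding protein, reached an adjusted p of 0.0667 without control replicate 3, Hilpda, a lipid droplet protein induced by hypoxia, 0.0654 without day 10 replicate 2, and the noradrenaline transporter Slc6a2 0.141 without day 10 replicate 3. Of 20 alternative fits Igfbp3 lost the call in 6, Hilpda in 3 and Slc6a2 in 3.

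**Figure D1:**
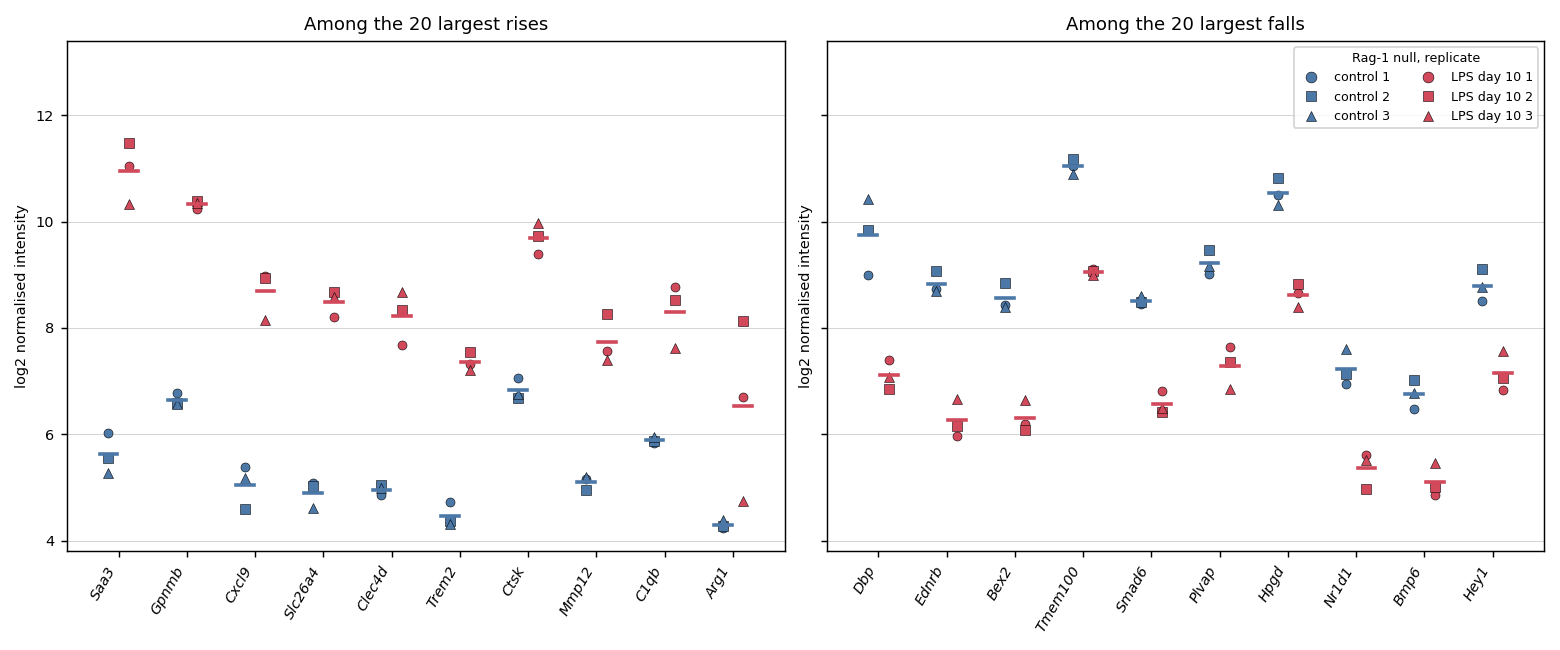
Log2 normalised intensity on each Rag-1 null array, control in blue and LPS day 10 in red, for 10 of the 20 largest rises (left) and 10 of the 20 largest falls (right). Symbols mark the replicate and short lines the group means, and the day 10 arrays of each gene lie apart from the controls, with Arg1 spread from 4.75 to 8.14 at day 10.

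Macrophage genes rose. Of 29 tested genes of a monocyte and macrophage list 17 rose and 0 fell, against 5.45% and 4.89% of all genes. The median difference was 0.87 against -0.01 over all genes. For 21 of the 29 the day 10 arrays lay wholly above the controls, against 16.7% of all genes. The mean level of the list was 6.71 to 6.77 on the control arrays and 7.87 to 8.05 at day 10. In whole lung, more cells of a type and more RNA per cell cannot be told apart. The genes fall into receptors, lysosomal and secreted proteases, complement and arginine or lectin genes of alternative activation.

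Among the receptors, Adgre1, which encodes a surface antigen of mature mouse macrophages, was at 7.09, 7.06 and 6.93 in controls and at 8.95, 9.07 and 9.16 at day 10. It rose by 2.04 ± 0.19 (adjusted p = 2.46e-07). Trem2, a lipid-sensing receptor of tissue macrophages, was above background on 1 of 3 control arrays, at 4.73, 4.37 and 4.32, and on all 3 at day 10, at 7.33, 7.55 and 7.21. Its rise was 2.89 ± 0.29 (adjusted p = 1.24e-06). Gpnmb, a membrane glycoprotein of lipid-laden macrophages, stood at 6.77, 6.59 and 6.57 and then at 10.2, 10.4 and 10.3, which is 12.9-fold. Both receptors were thus tightly grouped at day 10. Itgax, the integrin CD11c of alveolar macrophages and dendritic cells, rose by 1.55 ± 0.21 and the scavenger receptor gene Marco by 1.75 ± 0.32, with Marco higher on replicate 3 (7.90) than on the other day 10 arrays (6.58 and 6.77). Apoe, a lipid carrier made by macrophages, rose by 2.03 ± 0.46. It was the single gene of 20 for cholesterol synthesis and uptake that passed, where 10.3% of all genes did.

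Receptors for antibody and for microbial sugars were among the calls, and those named here were picked from the genes that passed, not counted over a list of their own. The Fc gamma receptor genes Fcgr2b, Fcgr3 and Fcgr4, the first inhibitory and the others activating, rose by 2.26 ± 0.28, 1.81 ± 0.18 and 1.45 ± 0.21. Clec4d, a C-type lectin that binds fungal and mycobacterial glycolipids, was at 4.86, 5.04 and 4.99 in controls and at 7.68, 8.33 and 8.67 at day 10, a rise of 3.26 ± 0.29 (adjusted p = 1.52e-07). Its partner Clec4e, the Mincle receptor, was not above background on any control array and lay at 6.41, 6.91 and 6.79 at day 10, at least 4.40-fold higher (adjusted p = 0.00011). Clec4n, the Dectin-2 receptor for mannan, rose by 2.43 ± 0.22. Toll-like receptor 2, which reads bacterial lipoproteins, rose by 2.20 ± 0.23, and Cd14 by 1.59 ± 0.35. For each of these lectins the 3 day 10 arrays stood above all controls.

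The proteases included Ctsk, cathepsin K, which degrades collagen and elastin. Ctsk was at 7.06, 6.68 and 6.76 in controls and at 9.40, 9.73 and 9.97 at day 10, a rise of 2.86 ± 0.20 (adjusted p = 6.96e-09). Mmp12, macrophage elastase, went from 5.16, 4.95 and 5.20 to 7.57, 8.26 and 7.40, a rise of 2.64 ± 0.20 (adjusted p = 3.53e-08). Ctss, cathepsin S, which also trims the invariant chain for antigen presentation, rose by 2.05 ± 0.35. Mmp14, a membrane-bound collagenase and activator of other proteases, rose by 1.51 ± 0.21. Of 26 genes of matrix proteases and inhibitors 6 rose and 1 fell, against 5.45% and 4.89% of all genes. The inhibitors split, since Timp1 rose by 1.95 ± 0.43 and Timp3, an inhibitor held in the matrix, fell by 0.79 on the log2 scale (adjusted p = 0.000204). Timp1 was at 9.42, 8.94 and 7.46 at day 10 against 6.56 to 6.79 in controls, so replicate 3 lay closest to the controls.

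Of 19 complement genes 6 rose and 0 fell, against 5.45% and 4.89% of all genes. The smallest p were those of the C1q complex and of factor B. C1qa, C1qb and C1qc, the 3 chains of C1q, rose by 1.97 ± 0.23, 2.42 ± 0.25 and 2.26 ± 0.27. C1qb lay at 5.85 to 5.94 in controls and at 8.76, 8.53 and 7.63 at day 10. Cfb, factor B of the alternative pathway, rose by 2.76 ± 0.32 (adjusted p = 6.24e-06).

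Genes used as marks of alternative macrophage activation rose in 6 of 16 cases and 1 fell, against 5.45% and 4.89% of all genes. Retnla, which encodes the secreted protein Fizz1, was at 9.58, 8.45 and 9.59 in controls and at 11.2, 11.9 and 11.1 at day 10. It rose by 2.21 ± 0.49 (adjusted p = 0.00463). Chil3, the chitinase-like protein Ym1, rose by 1.57 ± 0.36, and Fn1, fibronectin, by 2.04 ± 0.42. Arg1, the arginase that competes with nitric oxide synthesis for arginine, was not above background on any control array and differed widely among the day 10 arrays, at 6.69, 8.14 and 4.75. It was at least 3.91-fold higher (adjusted p = 0.00434), and replicate 3 was barely above the controls. Flt1, the fallen member of that list and a VEGF receptor of endothelium, fell by 1.12 on the log2 scale (adjusted p = 0.00317).

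Promoter sequences are shown for 3 risen macrophage genes because members of this list moved together and the macrophage factor PU.1 binds purine-rich sites. The letters GAGGAA, the core of the PU box, were searched on both strands in windows of 250 bases before to 50 bases after each start (RefSeq, GRCm38.p6, first listed promoter of a gene). They occurred in 11 of the 14 risen list members that had an entry, 78.6%, against 28.3% of all 32851 promoters of that length. Capitals mark the match, which reads TTCCTC where it lies on the other strand. Ctsk is on chr3:95498960-95499259 (+), Mmp12 on chr9:7344147-7344446 (+) and Fcgr3 on chr1:171059354-171059653 (-).
Ctsk: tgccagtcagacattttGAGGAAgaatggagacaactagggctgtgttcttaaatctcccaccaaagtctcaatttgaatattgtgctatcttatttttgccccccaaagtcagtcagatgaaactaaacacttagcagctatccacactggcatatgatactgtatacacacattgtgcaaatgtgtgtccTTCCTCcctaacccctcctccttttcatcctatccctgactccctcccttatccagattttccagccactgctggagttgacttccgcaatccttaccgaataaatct
Mmp12: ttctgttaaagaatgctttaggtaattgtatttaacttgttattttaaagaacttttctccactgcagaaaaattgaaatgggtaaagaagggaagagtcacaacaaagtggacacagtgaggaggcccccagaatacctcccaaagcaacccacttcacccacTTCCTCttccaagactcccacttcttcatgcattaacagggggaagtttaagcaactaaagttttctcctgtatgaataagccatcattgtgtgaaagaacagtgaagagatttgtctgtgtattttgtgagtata
Fcgr3: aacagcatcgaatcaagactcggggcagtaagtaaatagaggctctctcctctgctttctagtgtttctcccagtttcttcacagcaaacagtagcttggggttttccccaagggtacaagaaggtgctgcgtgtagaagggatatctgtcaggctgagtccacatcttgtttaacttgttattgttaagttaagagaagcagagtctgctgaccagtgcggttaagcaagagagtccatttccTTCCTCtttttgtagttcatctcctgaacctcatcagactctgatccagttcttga
Ctsk holds 2 matches and the other two promoters 1 each, with the first base at -86 from the start in Mmp12 and at -6 in Fcgr3. A match is a description of these letters and not a binding site.

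Part of the acute phase response was raised at day 10. Of 24 acute phase and NF-kB genes 8 rose and 0 fell, against 5.45% and 4.89% of all genes. The median difference was 0.61. Saa3, serum amyloid A3, which is made in inflamed lung, was at 6.03, 5.56 and 5.28 in controls and at 11.0, 11.5 and 10.3 at day 10, a rise of 5.33 ± 0.39 (adjusted p = 1.64e-08). Lcn2, the iron-siderophore binding protein of neutrophils and airway epithelium, rose by 2.70 ± 0.29. Lrg1, a leucine-rich glycoprotein of the acute phase, rose by 2.02 ± 0.22, and Socs3, the feedback inhibitor of interleukin-6 signalling, by 1.51 ± 0.35. Slc26a4, the anion exchanger pendrin of inflamed airway epithelium, was at 5.09, 5.02 and 4.61 in controls and at 8.21, 8.67 and 8.59 at day 10. Its rise of 3.58 ± 0.24 had the smallest adjusted p of the 40 genes named above (5.52e-09).

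Cytokine and chemokine genes rose in 13 of 35 cases and 1 fell, against 5.45% and 4.89% of all genes. The median difference was 0.88. Cxcl9, a chemokine induced by interferon gamma that draws T and natural killer cells, was at 5.39, 4.60 and 5.17 in controls and at 8.98, 8.95 and 8.15 at day 10, a 12.4-fold rise. Xcl1, a chemokine of natural killer cells and cytotoxic T cells, rose by 1.81 ± 0.35. Of the ligands for monocytes and macrophages, Ccl9 rose by 2.15 ± 0.17 (adjusted p = 4.08e-08), Ccl12 by 1.64 ± 0.28, Ccl6 by 1.73 ± 0.30 and Cxcl16 by 1.16 ± 0.13. Ccl17, the dendritic cell ligand of Ccr4, rose by 1.50 ± 0.18. Il33, an alarmin of epithelium, was at 8.83, 8.17 and 8.84 in controls and at 9.72, 10.0 and 9.67 at day 10, a rise of 1.19 ± 0.21. Cxcl14 fell by 0.98 on the log2 scale (adjusted p = 0.00544).

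Type I and interferon gamma response genes were read apart. Of 20 type I interferon-stimulated genes 0 passed in limma at day 10 and 1 had an unadjusted p under 0.05, against 2104 of all 9605 genes. The median difference was 0.03. At day 4, 16 rose against the same controls, where 12.9% of all genes did. Rsad2, an antiviral enzyme, was at 5.38, 5.02 and 5.33 in controls and at 6.54, 5.90 and 6.36 at day 10, a difference of 1.02 ± 0.41 that did not pass (adjusted p = 0.147). All 20 interferon gamma response genes rose at day 4. At day 10, 19 of the 20 differences were positive, with a median of 0.67. The day 10 arrays lay wholly above the controls for 14 of the 20 genes, against 16.7% of all genes. In limma 4 of the 20 rose at day 10, against 5.45% of all genes. The 4 were Cxcl9, the class II transactivator Ciita (0.94 ± 0.17), the immunoproteasome subunit Psmb9 (0.82 ± 0.18) and the transcription factor Irf8 (0.67 ± 0.19). Irf8 lost the call when some single arrays were left out, with an adjusted p of 0.109 without day 10 replicate 3.

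Of 21 genes of a neutrophil list 17 had risen at day 4, against 12.9% of all genes. At day 10, 20 of the 21 differences were positive, with a median of 0.21. For 8 of the 21 the day 10 arrays lay wholly above the controls, against 16.7% of all genes. In limma 4 of the 21 rose at day 10, against 5.45% of all genes. The 4 were Clec4d, Lcn2, Clec4e and the formyl peptide receptor gene Fpr2 (2.13 ± 0.34), which myeloid cells other than neutrophils or epithelium also express. S100a8, a calcium-binding protein of neutrophils, was at 9.33, 9.44 and 9.42 in controls and at 9.91, 10.0 and 10.2 at day 10. Its difference of 0.63 ± 0.70 did not pass (adjusted p = 0.751), although the groups did not overlap, and it passed with only these 6 arrays in the model. The standard error rests on the spread within all groups, and S100a8 lay at 8.53, 12.05 and 10.43 in wild type controls. Cxcr2, the neutrophil chemokine receptor, stood at 4.60, 4.91 and 4.80 in controls and at 4.93, 4.75 and 4.96 at day 10, and those arrays overlap.

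MHC class II presentation genes rose in 12 of 19 cases and 0 fell, against 5.45% and 4.89% of all genes. The median difference was 0.97. The class II chain gene H2-Ab1 was at 10.3, 10.2 and 10.3 in controls and at 11.4, 11.7 and 11.6 at day 10, a rise of 1.26 ± 0.23 (adjusted p = 0.000685). H2-DMb2, a chain of the DM molecule that loads peptides, rose by 1.05 ± 0.17, and Ifi30, a lysosomal thiol reductase, by 1.41 ± 0.20. Cd86, the costimulatory ligand, rose by 1.06 ± 0.22. Ccr7, which guides dendritic cells to lymph nodes, was at 4.99, 4.81 and 5.12 in controls and at 6.18, 6.25 and 5.99 at day 10. The call for its rise of 1.17 ± 0.30 (adjusted p = 0.0146) was lost in 4 of 20 alternative fits. Among them was the fit without control replicate 2, at an adjusted p of 0.0686. Cd72, a receptor of B cells and macrophages, rose by 1.55 ± 0.24.

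**Figure D2:**
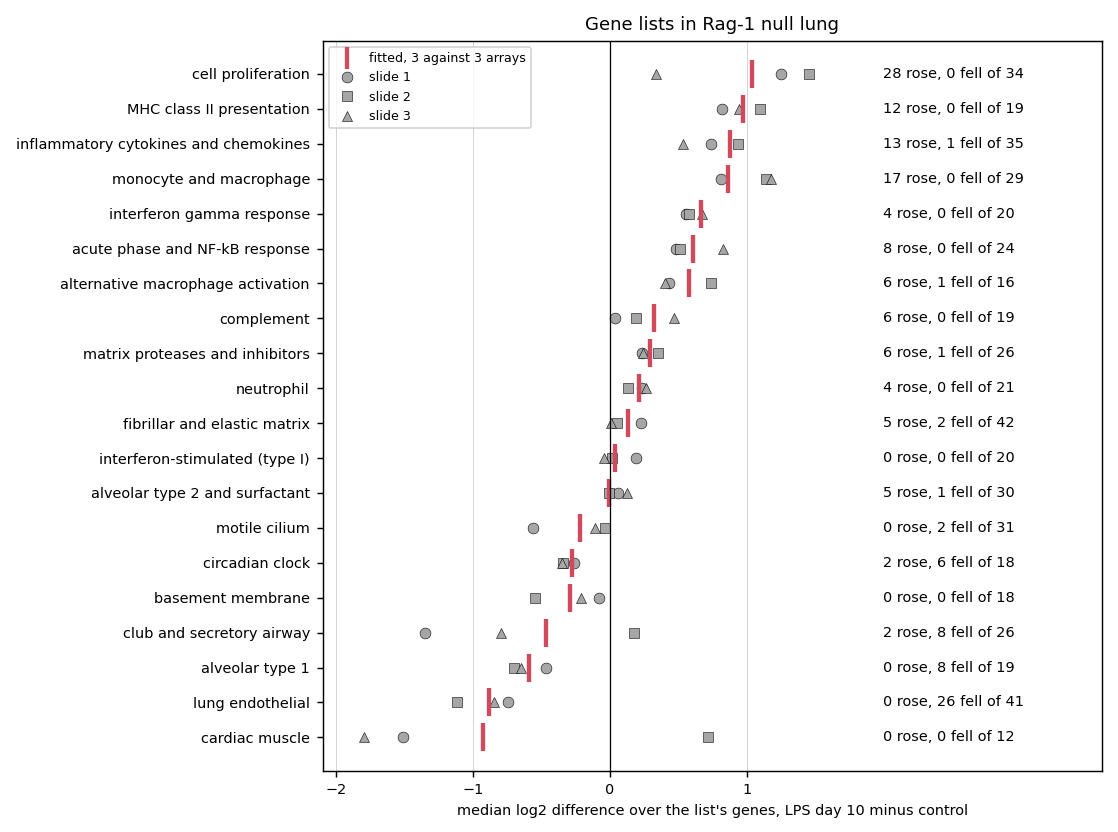
Median log2 difference, LPS day 10 minus control, over the tested genes of 20 gene lists in Rag-1 null lung, as fitted over 3 against 3 arrays (red bar) and within each of the 3 slides (grey symbols). Text at the right counts the genes that rose or fell. Proliferation and macrophage lists lie at the right, endothelial and alveolar type 1 lists at the left, and the cardiac and club lists have slides on both sides of 0.

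Genes of cell division rose together. Of 34 tested proliferation genes 28 rose and 0 fell, against 5.45% of all genes rising, and all 34 differences were positive, with a median of 1.04. By slide the median was 1.25 on slide 1, 1.46 on slide 2 and 0.34 on slide 3. The mean level of the list was 5.31 to 5.58 on the control arrays and 6.90, 6.78 and 5.84 on day 10 replicates 1, 2 and 3. Day 10 replicate 3 thus stood between the controls and the other day 10 arrays. Mki67, the Ki-67 antigen of dividing cells, was at 5.55, 5.05 and 5.14 in controls and at 7.19, 7.24 and 6.18 at day 10, a rise of 1.63 ± 0.23 (adjusted p = 6.12e-05). Bub1b, a kinase of the spindle checkpoint, did not follow that pattern among replicates, at 6.32, 6.44 and 6.55 against 5.25, 4.79 and 4.99 in controls. It rose by 1.43 ± 0.15 (adjusted p = 1.71e-06). The mitotic kinase Plk1 was at 7.21, 6.97 and 5.91 and the spindle protein Nusap1 at 7.22, 7.18 and 6.11 at day 10, with rises of 1.57 ± 0.24 and 1.71 ± 0.23. Prc1, a microtubule bundler of the dividing cell's midzone, was at 8.98, 8.79 and 6.89 at day 10, and its control replicate 1 at 6.75 was almost as high as day 10 replicate 3. Its rise was 2.11 ± 0.38 (adjusted p = 0.000612). Cdk1, the mitotic cyclin-dependent kinase, and Top2a, the topoisomerase of dividing cells, rose by 1.62 ± 0.26 and 1.57 ± 0.24. Aurkb, a kinase of chromosome segregation, was not above background on any control array and was at least 1.64-fold higher at day 10. Of the genes of DNA replication, Mcm7, a subunit of the replicative helicase, rose by 0.73 ± 0.17, and Uhrf1, which helps copy DNA methylation after replication, by 1.48 ± 0.26.

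Promoters of the 4 proliferation genes with the smallest p are shown because cell cycle genes share known promoter elements, the CCAAT box and the cell cycle homology region. The letters TTTGAA, the homology region, were found in 13 of the 25 risen list members with a promoter entry, 52%, against 17.9% of all 32851 promoters. CCAAT was found in 18 of the 25, 72%, against 37.4%. Both were searched on both strands and do not overlap in the 4 promoters, where capitals mark them and ATTGG is CCAAT on the other strand. In GRCm38.p6 the windows lie on chr2:118597961-118598260 (+) for Bub1b, chr2:119618048-119618347 (+) for Nusap1, chr7:135716330-135716629 (-) for Mki67 and chr7:122159185-122159484 (+) for Plk1.
Bub1b: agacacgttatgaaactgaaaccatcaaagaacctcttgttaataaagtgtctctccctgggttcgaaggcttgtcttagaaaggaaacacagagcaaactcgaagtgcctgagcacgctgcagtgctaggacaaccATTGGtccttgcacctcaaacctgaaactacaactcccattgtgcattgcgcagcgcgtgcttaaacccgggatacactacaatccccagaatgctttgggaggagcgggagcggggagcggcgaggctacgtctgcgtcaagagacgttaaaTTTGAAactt
Nusap1: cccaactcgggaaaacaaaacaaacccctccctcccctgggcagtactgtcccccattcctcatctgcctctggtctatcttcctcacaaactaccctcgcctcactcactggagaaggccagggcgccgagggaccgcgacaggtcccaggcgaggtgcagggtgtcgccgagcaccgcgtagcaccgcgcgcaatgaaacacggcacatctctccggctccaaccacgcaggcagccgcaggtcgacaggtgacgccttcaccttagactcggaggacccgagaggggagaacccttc
Mki67: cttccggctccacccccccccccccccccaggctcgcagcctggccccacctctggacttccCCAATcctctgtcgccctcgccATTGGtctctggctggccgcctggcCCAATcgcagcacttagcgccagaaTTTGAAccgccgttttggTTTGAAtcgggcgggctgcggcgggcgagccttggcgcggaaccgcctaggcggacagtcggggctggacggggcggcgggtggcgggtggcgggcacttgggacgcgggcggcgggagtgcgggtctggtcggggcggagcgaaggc
Plk1: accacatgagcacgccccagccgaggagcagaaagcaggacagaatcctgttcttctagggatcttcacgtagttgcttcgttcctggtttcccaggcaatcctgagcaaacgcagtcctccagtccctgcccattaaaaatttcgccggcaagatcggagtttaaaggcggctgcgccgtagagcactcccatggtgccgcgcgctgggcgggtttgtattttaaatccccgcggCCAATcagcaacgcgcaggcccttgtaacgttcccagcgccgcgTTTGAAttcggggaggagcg
Mki67 holds 3 CCAAT matches and 2 TTTGAA matches, Bub1b and Plk1 hold 1 of each, and neither string is in the Nusap1 window.

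Of the 36 lists the endothelial one held the most falls. Of 41 tested lung endothelial genes 26 fell and 0 rose, against 4.89% of all genes falling, with a median difference of -0.89. The day 10 arrays lay wholly below the controls for 34 of the 41, against 17.2% of all genes. The list's mean level was 8.32 to 8.54 in controls and 7.47 to 7.56 at day 10, and the slide medians were -0.75, -1.12 and -0.84. Whether endothelial cells were fewer or held less of these RNAs cannot be told apart in whole lung.

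Among surface receptors, Ednrb, the endothelin B receptor that clears endothelin in lung, was at 8.73, 9.06 and 8.69 in controls and at 5.98, 6.16 and 6.67 at day 10. It fell by 2.56 on the log2 scale (SE 0.27, adjusted p = 1.58e-06). Tek, the angiopoietin receptor Tie2, fell by 1.52, and Thbd, thrombomodulin, the anticoagulant receptor of thrombin, by 1.21 on the log2 scale. Lyve1, a hyaluronan receptor of lymphatic vessels, was at 9.10, 9.14 and 9.11 in controls and at 8.42, 7.61 and 6.88 at day 10, so its day 10 arrays spread while its controls did not. Plvap, the protein of fenestral and caveolar diaphragms, fell by 1.93 and Cavin2, a coat protein of caveolae, by 1.46 on the log2 scale (adjusted p = 1.61e-05 and 3.62e-05). Aqp1, the water channel of capillaries and red cells, fell by 1.03 on the log2 scale.

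Some of the genes that fell encode parts of BMP signalling, and they were picked from the calls, since no list of BMP genes was counted. Bmp6, a ligand, was at 6.47, 7.02 and 6.78 in controls and at 4.85, 5.01 and 5.45 at day 10, a fall of 1.65 ± 0.22 on the log2 scale. Acvrl1, the ALK1 receptor, and its coreceptor Eng, endoglin, fell by 1.18 ± 0.18 and 1.06 ± 0.20. The targets Smad6, an inhibitor of the pathway, and Tmem100, an endothelial membrane protein, fell by 1.93 ± 0.29 and 1.98 ± 0.22. Tmem100 was tightly grouped, at 11.0, 11.2 and 10.9 in controls and at 9.1, 9.1 and 9.0 at day 10. Hey1, a transcriptional repressor induced by Notch and BMP signals, fell by 1.64 ± 0.32 and Tbx3, a T-box transcription factor, by 1.19 ± 0.17. Clec1a, a C-type lectin of endothelium, fell by 1.46 ± 0.20, the opposite direction to the myeloid lectins above. Esm1, a proteoglycan of angiogenic endothelium, fell by 1.76 ± 0.32.

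**Figure D3:**
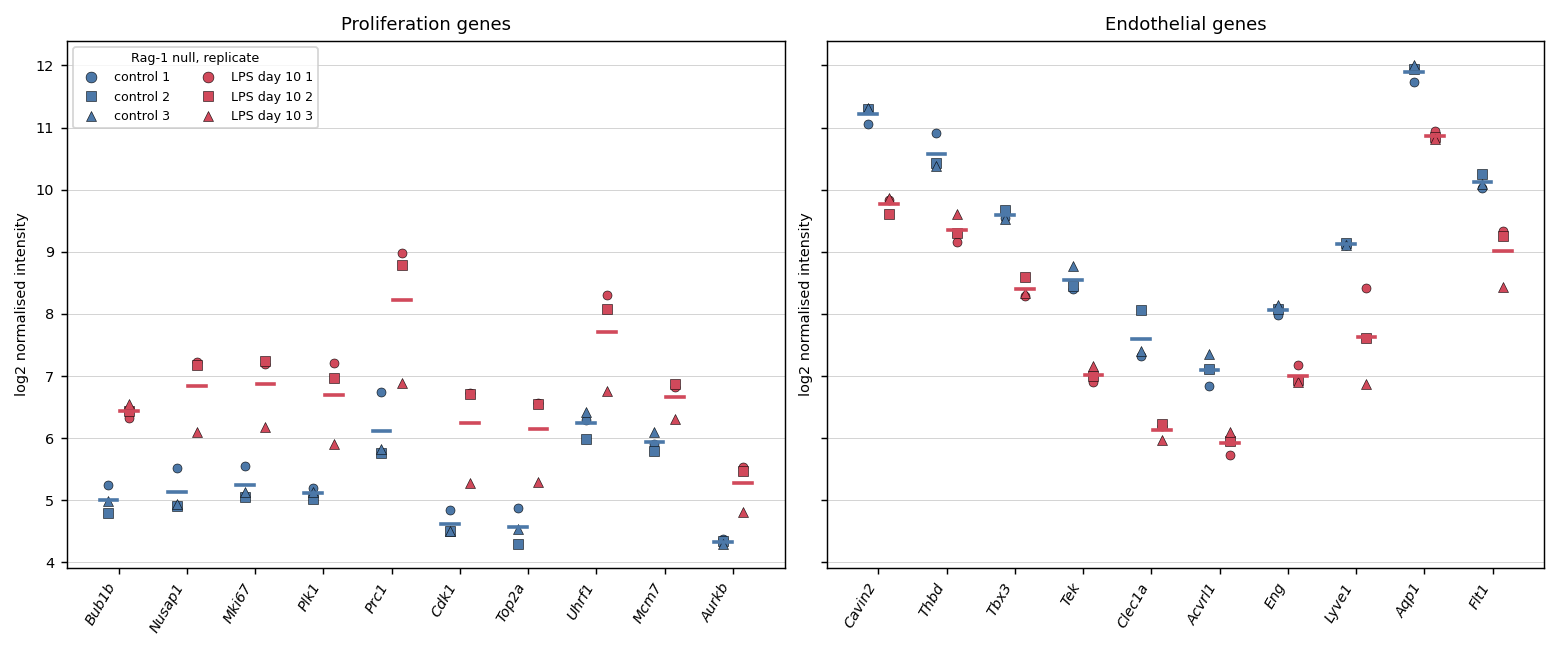
Log2 normalised intensity on each Rag-1 null array for 10 proliferation genes (left) and 10 endothelial genes (right), control in blue and LPS day 10 in red, with symbols for the replicates and short lines for the group means. In 9 of the proliferation genes day 10 replicate 3 lies below the other day 10 arrays, and every endothelial gene has all day 10 arrays below the controls.

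Genes of the alveolar epithelium were read by cell type. Of 19 alveolar type 1 genes 8 fell and 0 rose, against 4.89% and 5.45% of all genes, with a median difference of -0.59. Emp2, a tetraspan membrane protein, was at 11.5, 11.3 and 11.4 in controls and at 10.4, 10.4 and 10.5 at day 10 and fell by 1.00 on the log2 scale (adjusted p = 3.45e-05). Vegfa, which type 1 cells make for the capillaries, fell by 1.04, Limch1, an actin-binding protein, by 0.90 and Cav1, the caveolin shared with endothelium, by 0.93 on the log2 scale. Ager, the receptor RAGE that defines these cells, fell by 0.59 on the log2 scale (adjusted p = 0.0166). It lost the call in 4 of 20 alternative fits, with an adjusted p of up to 0.0933 (without control replicate 2). Scnn1g, a subunit of the sodium channel that clears alveolar fluid, fell by 1.06 on the log2 scale. Aqp5 and Pdpn, also markers of type 1 cells, overlapped between the groups. Aqp5 was at 7.73, 7.63 and 7.75 in controls and at 7.82, 7.65 and 7.12 at day 10. Pdpn was at 10.09, 9.99 and 10.06 in controls and at 10.06, 10.12 and 9.84 at day 10. Of 30 alveolar type 2 and surfactant genes 5 rose and 1 fell, where 5.45% and 4.89% of all genes did, with a median of -0.01. The risen genes included Lcn2, Il33 and Chil1, a chitinase-like protein at 0.90 ± 0.16, none of which makes surfactant. The 5 rises became 3 when any 1 of 5 single arrays was left out. Abca3, the lipid pump of lamellar bodies, was at 6.65, 6.61 and 6.62 in controls and at 6.42, 6.60 and 6.73 at day 10, so the groups overlap.

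Airway secretory genes fell in 8 of 26 cases and rose in 2, against 4.89% and 5.45% of all genes. The slide medians were -1.35, 0.17 and -0.79. The list's mean level was 9.04, 7.75 and 8.89 in control replicates 1, 2 and 3 and 7.93, 8.86 and 8.19 at day 10, so control replicate 2 lay below all day 10 arrays. The genes that passed moved on every slide. Cyp2f2, a cytochrome P450 of club cells, was at 11.8, 11.6 and 11.7 in controls and at 10.1, 10.6 and 10.1 at day 10, a fall of 1.41 on the log2 scale (adjusted p = 0.00436). The glutathione transferases Gstm1 and Gsta3 fell by 1.41 and 1.60, the retinal dehydrogenase Aldh1a1 by 1.45 and the paraoxonase Pon1 by 1.93 on the log2 scale. Cyp4b1, another lung cytochrome P450, fell by 1.97 and Hpgd, which inactivates prostaglandins, by 1.92 on the log2 scale. Of 31 motile cilium genes 2 fell, against 4.89% of all genes. These were Tppp3, a tubulin-binding protein (-0.87 ± 0.17), and Dnaic1, a dynein arm chain (-0.70 ± 0.19). Dnaic1 lost the call in 5 of 20 alternative fits in limma, with an adjusted p of up to 0.107 (without day 10 replicate 1).

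Most matrix genes did not pass. Of 42 fibrillar and elastic matrix genes 5 rose and 2 fell, against 5.45% and 4.89% of all genes, so the share that fell was close to that of all genes. The median difference was 0.13. Without day 10 replicate 1 or 2, or control replicate 3, 3 of the 5 rises passed. Tgfbi, a matrix adhesion protein that macrophages also secrete, rose by 2.01 ± 0.16 (adjusted p = 4.08e-08), with all controls between 7.59 and 7.83 and all day 10 arrays between 9.57 and 9.77. Col15a1, a collagen of the basement membrane zone, rose by 0.56 ± 0.12. Eln, elastin, spread widely, at 8.50, 8.99 and 7.16 in controls and at 10.6, 9.95 and 9.36 at day 10. Its rise of 1.74 ± 0.50 lost the call in 4 of 20 alternative fits, with an adjusted p of up to 0.206 (without control replicate 3). The collagen chain gene Col1a1 rose by 0.85 ± 0.26 and lost the call in 7 of 20 alternative fits, with an adjusted p of up to 0.203 (without day 10 replicate 2). Of 18 basement membrane genes 0 passed in limma and 7 had an unadjusted p under 0.05, against 2104 of all 9605 genes. For 8 of the 18 all day 10 arrays lay below the controls and for 3 all above, against 17.2% and 16.7% of all genes. Without the wild type LPS day 1 arrays in the model, 4 of the 18 fell, where 936 of 13544 probes did. Among 24 fibroblast and mesothelium genes 6 fell and 1 rose, where 4.89% and 5.45% of all genes did. Igfbp6 fell by 1.90 and Igfbp5 by 1.08 on the log2 scale. Without day 10 replicate 2, 2 of the 6 falls passed.

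Clock genes were among the largest falls. Dbp, a transcription factor driven directly by the clock, was at 8.99, 9.84 and 10.4 in controls and at 7.40, 6.85 and 7.08 at day 10, a fall of 2.65 ± 0.52 on the log2 scale (adjusted p = 0.00159). Nr1d1, the repressor REV-ERB alpha, was at 6.95, 7.13 and 7.61 and then at 5.61, 4.97 and 5.52, a fall of 1.87 ± 0.28. Tef, a relative of Dbp, and Csnk1e, a kinase of the clock proteins, fell by 1.53 ± 0.37 and 0.66 ± 0.15. Per2 fell by 0.91 ± 0.26 and lost the call in 4 of 20 alternative fits, with an adjusted p of up to 0.127 (without control replicate 3). Of 18 clock genes 6 fell and 2 rose, against 4.89% and 5.45% of all genes. The 2 rises were lost when some single arrays were left out. The sources used here do not state the hour at which lungs were taken, and its part in these values was not tested. The immediate early factor Jun fell by 0.84 on the log2 scale (adjusted p = 0.00185).

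Markers of heart and fat, tissues that can adhere to a dissected lung, were read beside these results. Of 12 cardiac muscle genes 0 passed in limma and 1 had an unadjusted p under 0.05, against 2104 of all 9605 genes. All 12 differences were negative, with slide medians of -1.51, 0.72 and -1.80. Their mean level was 7.19, 5.85 and 7.25 in control replicates 1, 2 and 3 and 5.80, 6.53 and 5.51 at day 10. All 12 genes had overlapping groups. Of 5 adipose genes 1 rose and 1 fell, against 5.45% and 4.89% of all genes. Adipoq, the adiponectin gene of fat, stood at 6.88, 4.65 and 6.93 in controls and at 4.92, 6.04 and 4.33 at day 10. The part of these tissues in the falls above was not tested.

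A test of whether the day 10 response differed between the genotypes set the Rag-1 null response against that of wild type lung. In wild type lung at day 10, 278 of 13544 probes passed, 2.05%, with 128 higher (0.945%) and 150 lower (1.11%). As genes, 195 passed in wild type and 993 in Rag-1 null lung, and 65 passed in both, 33.3% of the first and 6.55% of the second. Of these 65, 61 had the same direction. The difference itself passed for 206 probes, 1.52%, of which 105 were higher (0.775%) and 101 lower (0.746%) in Rag-1 null relative to wild type. With the arrays only centred, and not quantile normalised, 361 passed, of which 14.1% were higher, against 51.0% here, and with the authors' deposited log2 values 799 passed, of which 63.6% were higher. Leaving out 1 array gave 67 to 368 probes, the lowest without Rag-1 null day 10 replicate 2 and the highest without replicate 3.

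The wild type controls in this test differed among themselves in neutrophil genes. S100a8 was at 8.53, 12.05 and 10.43 in wild type control replicates 1, 2 and 3, and the neutrophil gene Retnlg at 5.80, 8.61 and 7.29. The median difference between genotypes over the 21 neutrophil genes was 1.02, against 0.21 for the Rag-1 null response alone. By this test 2 of the 21 passed, where 1.77% of all genes did. With each wild type control left out in turn, all 19 differences named here passed. Saa3 rose by 1.68 ± 0.39 in wild type lung and by 5.33 ± 0.39 in Rag-1 null lung, a difference of 3.65 (adjusted p = 0.00163). Clec4d differed from control by 0.23 ± 0.29 in wild type lung, which did not pass, and the difference between genotypes was 3.04 (adjusted p = 0.000758). Gpnmb and Cxcl9 differed by 2.80 and 2.89, with adjusted p of 0.0196 and 0.0151, and both were lost without some single arrays, at 0.0574 for Gpnmb without Rag-1 null control replicate 3 and 0.0528 for Cxcl9 without day 10 replicate 2. The proteases Ctsk and Mmp12 rose in wild type lung too, by 1.29 and 1.01, and differed by 1.57 and 1.63 (adjusted p = 0.00677 and 0.00672). Slc26a4 rose by 1.81 in wild type lung and differed by 1.78. Ms4a6d, a four-pass membrane protein of macrophages, the macrophage ligand Ccl9, Tgfbi, Hvcn1, the proton channel of phagocytes, and Ch25h, which makes 25-hydroxycholesterol, differed by 2.09, 1.69, 1.62, 1.63 and 2.19. Ch25h was at 5.91, 5.68 and 5.51 in Rag-1 null controls and at 7.80, 7.82 and 7.75 at day 10, while its wild type difference was -0.10.

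Lower values in Rag-1 null lung relative to wild type were those of Tmem100 (-1.90, adjusted p = 0.00296), Ednrb (-1.95), Bmp6 (-1.75) and Omd (-0.85), an osteomodulin gene near background. Tmem100 and Bmp6 differed from control by -0.08 and 0.10 in wild type lung. Omd was above background on no Rag-1 null day 10 array and on no wild type control array. It was at least 1.17-fold lower than control in Rag-1 null lung and at least 1.05-fold higher in wild type lung. Of the 41 endothelial genes 8 had a lower response in Rag-1 null lung by this test, against 0.854% of all genes, and 1 fell in wild type lung, against 1.08%. In proliferation genes the response differed in 6 of 34, all higher in Rag-1 null lung, against 0.916% of all genes, and 1 of 34 rose in wild type lung, against 0.947%. Mki67 changed by -0.19 in wild type lung and differed by 1.82 (adjusted p = 0.00748). Ccr7 lay at 7.08, 6.95 and 6.25 in wild type controls and at 5.65, 5.60 and 5.88 at wild type day 10, a difference of -1.04 that did not pass, and the response differed by 2.21 (adjusted p = 0.0112). Fcrl1, a B cell receptor-like gene, was above background on no Rag-1 null array of either group. Its difference of 1.26 came from the wild type arrays, at 6.33, 5.97 and 5.72 in controls and 4.80, 4.40 and 4.97 at day 10.

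Other genes did not pass the test of the difference. Dbp changed by -3.47 and Nr1d1 by -1.64 in wild type lung, and the differences between genotypes of 0.82 and -0.23 did not pass. Eln rose by 2.33 and Col1a1 by 1.18 in wild type lung, with differences of -0.59 and -0.33 that did not pass. A p that misses the threshold does not show that the genotypes respond alike.

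**Figure D4:**
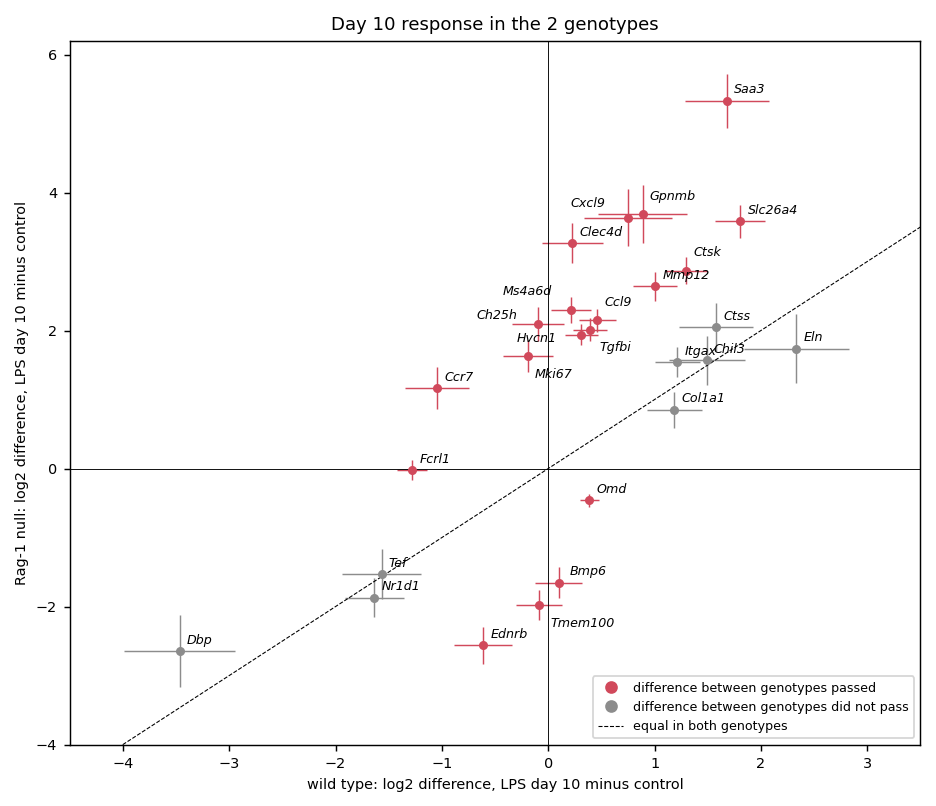
Log2 difference, LPS day 10 minus control, in wild type lung (horizontal) against Rag-1 null lung (vertical) for named genes, with standard errors as bars. Genes whose difference between genotypes passed are red, from Saa3 at the top to Ednrb at the bottom. Those whose difference did not pass, among them Dbp, Nr1d1 and Eln, are grey. The dashed line marks an equal response.

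The comparison of day 10 with day 4 within Rag-1 null lung asked what changed between these times. It passed for 1308 probes, 9.66%, of which 644 were higher (4.75%) and 664 lower (4.9%) at day 10. With the arrays only centred, 60.7% of the probes that passed were higher, against 49.2% here. Without day 4 replicate 3 the count was 686 and without day 4 replicate 2 it was 821. Against the shared controls, 3686 probes, 27.2%, had passed at day 4, 11.9% higher and 15.4% lower. Of the 30 alveolar type 2 and surfactant genes 19 were higher at day 10 than at day 4 and 1 lower, against 5.69% and 5.31% of all genes. Lower at day 10 were 14 of 20 type I interferon genes, all 20 interferon gamma genes and 14 of 21 neutrophil genes.

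Hc, complement component C5, which lung makes locally, was at 9.61, 9.66 and 9.56 in controls, at 6.32, 5.96 and 6.53 at day 4 and at 9.54, 9.84 and 10.5 at day 10. It was higher by 3.71 ± 0.32 at day 10 than at day 4 (adjusted p = 2.65e-07). Lrp2, the endocytic receptor megalin of alveolar epithelium, was higher by 2.15 ± 0.22. Ccl17 was at 5.88, 5.74 and 5.78 at day 4, with day 10 higher by 1.78 ± 0.18 (adjusted p = 2.67e-06). Ccl6 and Il33 were likewise higher at day 10, by 1.99 ± 0.30 and 1.77 ± 0.21, and at day 4 neither lay above its control, at -0.26 and -0.58. Slc26a4 was higher by 1.18 ± 0.24 than at day 4.

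Genes that fell from day 4 to day 10 with the smallest p included immune genes. Il18bp, the decoy receptor of interleukin-18, was at 8.12, 8.49 and 8.86 at day 4 and at 6.15, 5.70 and 5.55 at day 10, lower by 2.69 on the log2 scale. Its day 10 level was still above control by 0.80 ± 0.19, a call lost without day 10 replicate 1 (adjusted p = 0.0626). Ifit2, an antiviral gene induced by interferon, fell by 2.97, the Schlafen gene Slfn1 fell by 2.88 and the monocyte and endothelial antigen gene Ly6c1 fell by 2.01 on the log2 scale. Asprv1, an aspartic protease, fell by 3.76 and Clec4a1, a myeloid lectin, fell by 1.83. Fcgr4, an activating Fc receptor, fell by 2.43 on the log2 scale from day 4 and yet lay at 8.37, 8.45 and 8.10 at day 10 against 6.77 to 6.90 in controls. Saa3 fell by 2.87 on the log2 scale from day 4, when its arrays stood at 13.63 to 13.93, the top of the normalised range, which limits how large that difference can be.

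**Figure D5:**
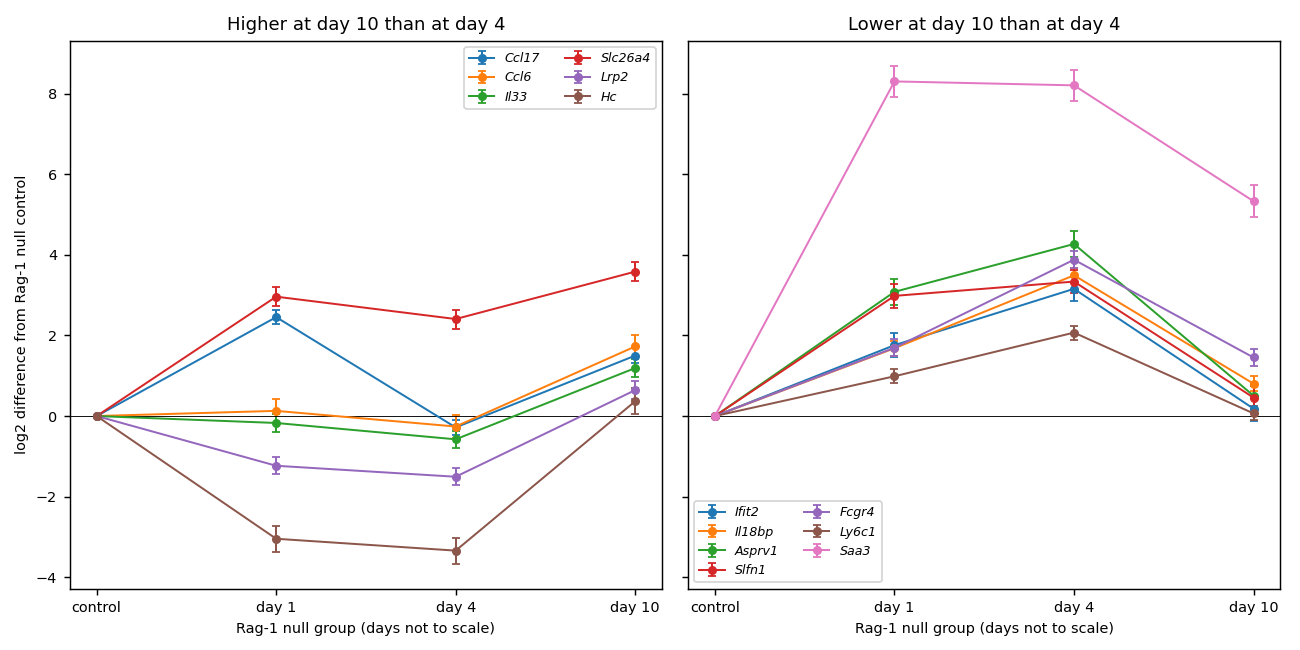
Log2 difference from Rag-1 null control at days 1, 4 and 10 with standard errors, for 6 genes that were higher (left) and 7 that were lower (right) at day 10 than at day 4. Hc and Lrp2 lie below control at days 1 and 4, Ccl17 is back at control at day 4, and Saa3 remains above control at all 3 times.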

How the data were processed

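Whole-lung RNA was amplified to biotin-labelled cRNA and hybridised to Illumina beadchips, per the labels' protocols. Per the file headers, the deposited scanner file gives 24 arrays of 24046 probes, each probe with an average bead signal, which is a linear intensity, and a detection score, which is a fraction. The detection p is 1 minus that score. The authors' deposited value table lists 13029 probes on the log2 scale, and each column was found to equal the log2 signal of 1 array minus its mean. Further steps taken by the authors were not given in the sources used here.

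That identity assigned the arrays to samples, with differences of at most 0.000543 to the own array and of at least 1.42, at some probe, to every other. The title line of the scanner file disagrees with it for 22 arrays and was set aside. There were 0 columns of no sample. Every slide carried 1 array of each of the 8 groups, always at the same position, so a group and its position on the slide cannot be told apart. The slide is also the replicate number, and there were 3.

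Intensities were processed with neqc in limma 3.58.1 (R 4.3.3), which corrects background from the detection scores, adds an offset of 16, equalises quantiles and takes log2. Tested were 13544 probes, those with a detection p under 0.05 on 3 or more arrays. The platform annotation names 11658 of them, for 9605 genes, and each gene is read from its brightest probe. A probe for ribosomal RNA that carries another gene's symbol went unnamed. Where 2 or more probes of a gene were called at day 10, in 71 genes, 0 disagreed in direction. Contrasts came from 1 limma fit of the 8 group means (eBayes, intensity trend, two-sided tests), with Benjamini-Hochberg adjustment across all tested probes and a threshold of 0.05. The fit was tested on simulated data. "At least" folds mark genes undetected on all arrays of 1 group. There the detected group's mean is set against the larger, per array, of the gene's own value and the dimmest detected signal. Promoters are RefSeq's for GRCm38.p6.

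Named genes were the 20 largest rises and falls that passed, leaving out names that are only clone or accession codes, up to 4 genes of smallest p in each of 36 lists, and the 10 of smallest p for the genotype difference and for day 10 against day 4. Other genes were named after their values were seen. The comparison, lists and rule were chosen with earlier results of these data known. Control and day 10 arrays of the same number deviated from their group means with correlations of 0.0139, -0.226 and 0.0862, so the numbers were not taken to pair the samples of that comparison. Some other groups did deviate together by number, such as wild type control and wild type LPS day 1 at 0.372, 0.257 and 0.234, and the fits with the slide as a block are given as alternatives. Alternatives changed the background correction, the normalisation, the source of values, the detection filter, the arrays in the fit, array weights, the variance prior, the slide block (statmod 1.5.0) and the probes per gene, or left out 1 array. A fit without the wild type LPS day 1 arrays was added after seeing the data, because these replicates correlated least.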

Additional observations from a re-analysis of the deposited data

Results flagged for a closer look

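The response to LPS at day 10 differed between Rag-1 null and wild type lung, by the test of the difference itself, for 206 probes. Among named genes the difference, Rag-1 null minus wild type on the log2 scale, was positive for Saa3 (3.65), Clec4d (3.04), Cxcl9 (2.89), Gpnmb (2.80), Ccr7 (2.21), Ch25h (2.19), Ms4a6d (2.09), Mki67 (1.82), Slc26a4 (1.78), Ccl9 (1.69), Mmp12 (1.63), Hvcn1 (1.63), Tgfbi (1.62), Ctsk (1.57) and Fcrl1 (1.26). It was negative for Ednrb (-1.95), Tmem100 (-1.90), Bmp6 (-1.75) and Omd (-0.85). Fcrl1 was at background in all Rag-1 null arrays compared.

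Within Rag-1 null lung, day 10 differed from day 4 for 1308 probes. The named genes higher at day 10 were Hc (3.71), Lrp2 (2.15), Ccl6 (1.99), Ccl17 (1.78), Il33 (1.77) and Slc26a4 (1.18). Those lower were Asprv1 (-3.76), Ifit2 (-2.97), Slfn1 (-2.88), Saa3 (-2.87), Il18bp (-2.69), Fcgr4 (-2.43), Ly6c1 (-2.01) and Clec4a1 (-1.83).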

How the results depend on the processing

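No named gene reversed under any alternative run, and of the settings that kept every compared array the named calls lost were those of Igfbp3 and Ccr7 (no background correction), Col1a1 (cyclic loess, centring only, no detection filter), Irf8 (centring only), Eln (robust prior) and, for the genotype difference, Omd (value table), with adjusted p from 0.0526 to 0.122. S100a8 passed with only the compared arrays. Across all settings 51 named values of 2539 lost the call for day 10 against control, 7 of 493 for the genotype difference and 0 of 280 for day 10 against day 4. The block by replicate number, which is the slide, gave 1239 probes for day 10 against control, 215 for the difference between genotypes and 1328 for day 10 against day 4, and changed no named call. Counts of probes moved more. For day 10 against control, 1983 probes (953 higher, 1030 lower) passed with only the compared arrays, 3417 (1615 and 1802) with array weights and 1860 (936 lower) without the wild type LPS day 1 arrays, the setting chosen after seeing the data. For the difference between genotypes, 361 (51 and 310) passed with centring only, 799 (508 and 291) in the value table, 700 (328 and 372) with only the compared arrays, 1695 (818 and 877) with array weights and 614 (298 and 316) without the wild type LPS day 1 arrays. For day 10 against day 4, 3230 (1776 and 1454) passed with array weights and 2260 (1215 and 1045) without those arrays. The cause was not tested. With centring only, the higher share of the genotype difference was 14.1% and that of day 10 against day 4 60.7%, against 51.0% and 49.2% here, and in the value table the first was 63.6%. Leaving out 1 array gave 783 to 1202 probes for day 10 against control (432 to 630 higher, 351 to 572 lower), 67 to 368 for the genotype difference (35 to 218 and 32 to 150) and 686 to 1544 for day 10 against day 4 (294 to 780 and 392 to 764). The genotype difference fell to 90 and 67 without Rag-1 null day 10 replicates 1 and 2 and to 115, 90 and 72 without Rag-1 null control replicates 1, 2 and 3. It fell to 112, 93 and 88 without wild type day 10 replicates 1, 2 and 3 and to 130 without wild type control replicate 2, and rose to 368 without Rag-1 null day 10 replicate 3. Without wild type control replicate 3 its lower probes numbered 60. In single-array settings 3 arrays against 2 were compared, with a spread shared by all groups. Probes near background, and those at the top of the quantile-normalised range, can show only part of a change.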

Other observations

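Innate lymphoid genes, which a lung without T and B cells still expresses, moved in both directions. Of 23 genes of a natural killer and innate lymphoid list 2 rose and 3 fell, where 5.45% and 4.89% of all genes did, with a median difference of -0.18 on the log2 scale. The day 10 arrays lay wholly below the controls for 7 of the 23 and wholly above for 3, against 17.2% and 16.7% of all genes. Klrb1c, a natural killer cell marker, was at 5.91, 5.78 and 5.85 in controls and at 5.16, 5.05 and 5.64 at day 10. For the marker Nkg7 the groups overlapped. Il7r, the interleukin-7 receptor of innate lymphoid cells, was not above background on any control array and lay at 5.31, 5.87 and 5.11 at day 10, at least 1.82-fold higher (adjusted p = 0.00165). Gata3, a transcription factor of innate lymphoid cells and of several other cell types, fell by 0.91 on the log2 scale and Kit, the stem cell factor receptor, also expressed by mast cells and capillary endothelium, by 1.03. Gata3 lost the call without day 10 replicate 1 (adjusted p = 0.0875) or control replicate 2 (0.0924), and Kit without day 10 replicate 2 (0.0557) or control replicate 2 (0.0551), in limma. Gata2, a transcription factor of mast cells and endothelium, was at 8.79, 8.88 and 8.95 in controls and at 7.31, 7.35 and 7.75 at day 10, a fall of 1.41 ± 0.18 on the log2 scale (adjusted p = 1.89e-05). It was the single call among 4 genes for mast cells, basophils and eosinophils. Ccl21a, a chemokine of lymphatic vessels, whose copies may share the probe, rose by 0.61 ± 0.14 from 8.07 to 8.10 in controls to 8.51 to 8.86 at day 10. It was 1 of 2 rises among 6 genes of thymus and lymph node stroma. Among 15 T cell genes 2 rose and 0 fell, and both rises were lost without day 10 replicate 1 or 2, without control replicate 2 and with no background correction. Among 16 genes for B and plasma cells 2 rose and 1 fell.

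Housekeeping and stress lists are set beside all genes, of which 10.3% passed, 5.45% higher and 4.89% lower. An unadjusted p under 0.05 in limma was reached by 2104 of all 9605 genes. Of 24 oxidative stress genes 2 rose and 3 fell. Among them Gpx3, the secreted glutathione peroxidase, was at 10.7, 10.9 and 10.9 in controls and at 9.75, 9.61 and 10.3 at day 10, a fall of 0.95 ± 0.19 on the log2 scale (adjusted p = 0.00228). Of 21 immediate early genes 1 rose and 4 fell, of 53 respiratory chain genes 1 rose and 0 fell, and of 23 chaperone genes 0 passed in limma, with 1 at an unadjusted p under 0.05. Of 16 genes of epithelial solute transport 2 rose and 3 fell. Of 18 smooth muscle genes 1 fell, and of 7 skeletal muscle and 5 erythroid genes 0 passed in limma, with 3 and 0 at an unadjusted p under 0.05. The haemoglobin gene Hba-a1 was at 11.4, 8.66 and 10.7 in controls and at 10.2, 11.6 and 11.6 at day 10, so its groups overlap. Leaving out single arrays moved each of these counts by at most 2 genes.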
